A study of Mus musculus with 6 samples.

Results

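Aggrecan, its link protein and the small leucine-rich proteoglycans were followed at the level of messenger RNA in primary mouse joint cartilage cells. The set held 10 genes, chosen by symbol: the large aggregating proteoglycans Acan and Vcan, the link protein gene Hapln1, and 7 genes of leucine-rich repeat proteins, Dcn, Bgn, Fmod, Lum, Prelp, Epyc and Chad. All 10 were found among the 17189 genes with values, and all 10 passed the filter on low counts among the 13399 genes tested.

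The series is a study of aged skin, experimental osteoarthritis and IL-36 receptor signalling, per its title. Its 6 libraries came from primary articular chondrocytes of WT mice. There were 2 libraries of cells labelled aging SNL with Spesolimab, a humanised antibody that blocks the IL-36 receptor, 2 of cells labelled aging SNL, and 2 of control cells; SNL and CCs are not spelled out in the labels, and neither the age of the mice nor the dose and duration of treatment is given there. The labels do not tell whether both libraries of a group stem from different animals or cultures. The p-values here thus reflect how far such libraries lie apart and no more, a spread that may be technical.

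Aggrecan carries many chondroitin and keratan sulfate chains and binds to hyaluronan, and link protein locks that bond, so that the aggregates hold water and let cartilage resist compression. Versican is built in the same way and is more typical of immature and fibrous matrix. The small proteoglycans have short cores of leucine-rich repeats that bind collagen fibrils and growth factors: decorin and biglycan carry chondroitin or dermatan sulfate, fibromodulin and lumican carry keratan sulfate, and epiphycan, PRELP and chondroadherin are further relatives found in cartilage. Loss of aggrecan is a hallmark of osteoarthritic cartilage.

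Several of these genes are neighbours in the mouse genome, by the order of coding genes in the RefSeq annotation of GRCm38.p6. Dcn, Lum, Kera and Epyc follow each other on chromosome 10. Prelp and Fmod are adjacent on chromosome 1. Hapln1 and Vcan are adjacent on chromosome 13, and Acan lies beside Hapln3, another link protein gene, on chromosome 7. Bgn is on chromosome X and Chad on chromosome 11.

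The bases before the annotated starts of the aggregate genes and of Epyc are shown. By counts scaled to library depth (CPM), all 4 genes stood higher in aging SNL replicate 2 than in both controls. In aging SNL replicate 1 this held for Epyc alone, by little, at 218 CPM against 204 and 210.4 CPM. With spesolimab, Vcan, Hapln1 and Epyc were above both controls in both libraries, while Acan overlapped with control. The height in aging SNL replicate 2 does not set the 4 genes apart, as Dcn, Lum, Fmod and Chad stood higher there too in CPM. Fmod did so by little, at 1619 CPM against 1559.5 and 1549.6 CPM. Scaled to transcript length as well (TPM), Fmod was below both controls there, at 1146 TPM against 1158 and 1175 TPM. Each window is the 250 bases upstream of a RefSeq start, from a table in build GRCm38.p6, written 5′ to 3′ on the gene's strand; the submitters' processing notes name GRCm39, and no position was converted. Capitals mark matches on either strand to 6 motifs. The TATA box was searched as TATAAA and the CCAAT box as CCAAT. The GC box was searched as GGGCGG, and matches that overlap each other, as at the first 2 in Acan, were both counted. A core of SOX sites was searched as ACAATG, and another core as ACAAAG. The AP-1 site was searched as TGANTCA.
Acan (chr7:79052976-79053225, plus strand): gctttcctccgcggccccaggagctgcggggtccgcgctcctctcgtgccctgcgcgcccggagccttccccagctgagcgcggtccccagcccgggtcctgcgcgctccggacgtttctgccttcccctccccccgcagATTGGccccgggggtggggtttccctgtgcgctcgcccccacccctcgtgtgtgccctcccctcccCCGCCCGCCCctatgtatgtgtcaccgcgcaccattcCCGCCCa
Vcan (chr13:89742513-89742762, minus strand): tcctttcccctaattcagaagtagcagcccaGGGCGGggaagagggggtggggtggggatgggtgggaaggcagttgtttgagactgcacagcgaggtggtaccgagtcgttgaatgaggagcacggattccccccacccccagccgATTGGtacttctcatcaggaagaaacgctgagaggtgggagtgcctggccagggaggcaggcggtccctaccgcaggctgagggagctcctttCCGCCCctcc
Hapln1 (chr13:89540386-89540635, plus strand): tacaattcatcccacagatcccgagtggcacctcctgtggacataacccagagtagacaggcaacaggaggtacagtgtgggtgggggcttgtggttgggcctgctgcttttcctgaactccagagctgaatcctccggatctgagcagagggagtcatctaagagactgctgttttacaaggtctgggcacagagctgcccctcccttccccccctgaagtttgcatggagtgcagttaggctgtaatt
Epyc upstream start (chr10:97643818-97644067, plus strand): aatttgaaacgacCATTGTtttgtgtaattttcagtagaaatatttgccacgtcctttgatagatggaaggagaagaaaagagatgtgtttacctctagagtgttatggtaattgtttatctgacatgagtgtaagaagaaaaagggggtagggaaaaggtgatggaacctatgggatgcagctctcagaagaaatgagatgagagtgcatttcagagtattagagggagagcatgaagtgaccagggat
Epyc downstream start (chr10:97646853-97647102, plus strand): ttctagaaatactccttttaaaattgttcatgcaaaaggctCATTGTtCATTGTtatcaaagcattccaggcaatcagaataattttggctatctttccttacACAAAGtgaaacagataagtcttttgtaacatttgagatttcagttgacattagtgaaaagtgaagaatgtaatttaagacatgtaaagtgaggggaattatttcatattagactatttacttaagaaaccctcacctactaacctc

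The windows differed in their letters. The Acan window was 74.4% G and C and held 3 GC boxes and 1 CCAAT match, and the Vcan window was 62.4% G and C with 2 GC boxes and 1 CCAAT match. Among the 32851 windows of the table, 32.7% held a GC box and 33.8% a CCAAT match, and the median G and C content was 52.4%. The Hapln1 window had none of the listed motifs. Both Epyc windows, at 39.2% and 31.2% G and C, held ACAATG, found in 10.7% of all windows, and the downstream one also held ACAAAG, found in 16.5%. AP-1 matches were in 6.75% of all windows and TATA boxes in 12.4%; of the 8 genes of the set with an entry, Chad alone had a TATA box. Dcn and Lum had no entry. These matches are descriptions of the letters, not of binding.

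The libraries held between 16566791 and 17312833 expected counts. All 10 chondrocyte markers checked were at 1 TPM or more in every library. TPM is a level scaled to transcript length and to the library's total. Their summed TPM was 32009 and 36509 with spesolimab, 5288 and 35010 in aging SNL, and 33518 and 32588 in control. Aging SNL replicate 1 stood apart, with Col2a1, the main cartilage collagen, at 7683 CPM (counts scaled to library depth by the TMM method), against 41780.1 to 48718 CPM in the other 5 libraries. The calls of each comparison that uses the aging SNL group are given with and without that library, as are the members' fold changes.

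Of markers of other cells, the 10 macrophage genes, of which 0 were at 0 in any library, summed to 301 and 72.9 TPM with spesolimab, 224 and 80.9 TPM in aging SNL and 241 and 53.4 TPM in control, higher in replicate 1 of every group. The 10 genes of fibroblasts and synovium summed to 9660.1 and 8039 TPM with spesolimab, 5478 and 6868 TPM in aging SNL, and 11092 and 8626 TPM in control. The 4 tendon genes summed to 317 and 205 TPM with spesolimab, 444 and 159.9 TPM in aging SNL, and 411 and 269 TPM in control. The 5 osteoblast genes summed to 434 and 157 TPM with spesolimab, 91.9 and 119 TPM in aging SNL, where 1 of them was at 0 in replicate 2, and 425 and 301 TPM in control. The 5 endothelial genes summed to no more than 1.94 TPM in any library, with 0 of them at 1 TPM or more. The part of these cells in the results below was not tested. In bulk RNA, fewer cells of a type and less RNA per cell cannot be told apart.

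Per transcript, decorin was the most abundant member in each of the 6 libraries. The 10 genes together made up 0.949% and 1.01% of all TPM with spesolimab, 1.1% and 1.08% in aging SNL, and 0.836% and 0.789% in control, so both aging SNL libraries and both spesolimab libraries lay above both controls. This sum does not speak for each gene, as Dcn was at 6224 TPM and Acan at 141 TPM in aging SNL replicate 1. In the control libraries Dcn stood at 2511 and 2008 TPM, Bgn at 1863 and 1521 TPM, Fmod at 1158 and 1175 TPM, Lum at 1049.8 and 935 TPM and Acan at 725 and 1108 TPM; the ranges of Acan and Lum overlapped each other. Prelp at 404 and 389 TPM, Hapln1 at 293 and 359 TPM and Epyc at 293 and 309.5 TPM came next, with overlapping ranges for Hapln1 and Epyc. Vcan was lower at 62.7 and 76.7 TPM. Chad was lowest at 5.61 and 7.08 TPM, from 66 to 100 counts per library, where the counting error is up to 12.3%; for the other members it was at most 1.69%.

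The make-up of this pool differed most in aging SNL replicate 1. Acan transcripts were 9.5% and 17.8% of the pool with spesolimab, 1.28% and 19.3% in aging SNL, and 8.66% and 14.1% in control. Dcn made up 35.6% and 32.1% with spesolimab, 56.5% and 32.5% in aging SNL, and 30.02% and 25.5% in control. Bgn made up 16.6% and 12.85% with spesolimab, 12.1% and 11.1% in aging SNL, and 22.3% and 19.3% in control. Its share was lower in all 4 libraries of aging SNL cells, treated or not, than in both controls. A share depends on the other members too, and Dcn had a larger share in these libraries. Bgn itself stood at 1571 and 1294 TPM with spesolimab, which overlapped with control at 1863 and 1521 TPM. In aging SNL it was at 1329 and 1205 TPM, below both controls, but in CPM these groups overlapped. The ratio of Dcn to Bgn in TPM, which does not depend on scaling between libraries, was 2.15 and 2.5 with spesolimab, 4.68 and 2.92 in aging SNL, and 1.35 and 1.32 in control. The 3 groups did not overlap, with spesolimab and aging SNL as near as 2.5 and 2.92. How often other pairs of genes part the groups in this way was not tested.

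**Figure D1:**
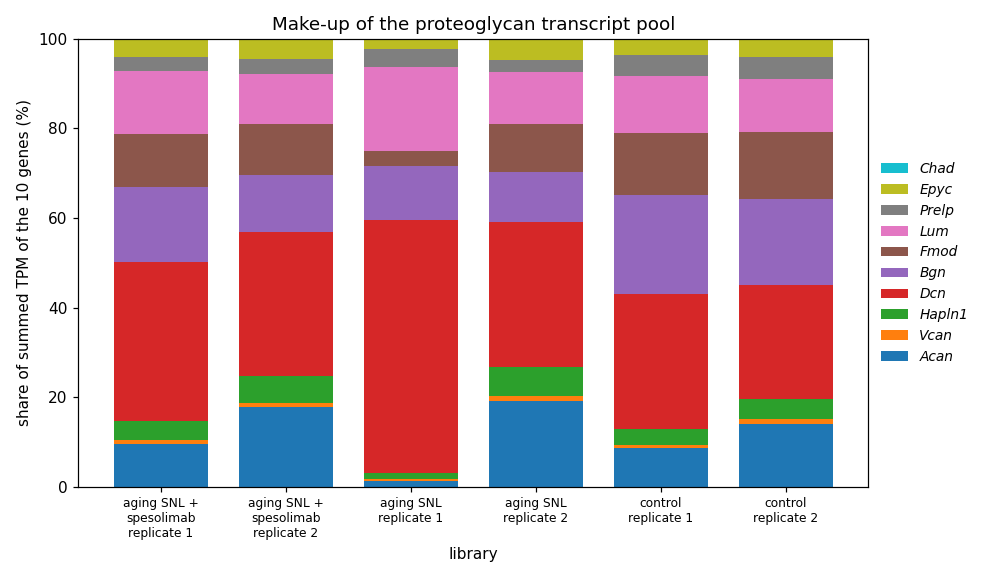
Share of each gene in the summed TPM of the 10 genes (y axis, %), 1 bar per library, with groups along the x axis. Acan, at the foot of the bars, shrinks to 1.28% in aging SNL replicate 1 while Dcn reaches 56.5% there.

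The first comparison set aging SNL cells against control cells. Dcn and Lum, neighbours on chromosome 10, were higher in both aging SNL libraries than in both controls; the aggregate genes Acan, Hapln1 and Vcan lay below control in one aging SNL library and above it in the other. In edgeR's quasi-likelihood test over 6 libraries, 0 of 13399 genes and so 0% were called at an adjusted p of 0.05 (Benjamini-Hochberg), and 0 of the 10 members. Without adjustment 1694 genes had p under 0.05, and DESeq2 called 415 genes (3%, 1.57% higher and 1.43% lower), with Dcn the 1 member among them (DESeq2 adjusted p = 0.0117). When aging SNL replicate 1 was dropped, the same edgeR test called 3.43% of 13630 genes, 1.81% higher and 1.61% lower, and 3 of the 10 members, all higher: Epyc, Vcan and Hapln1. With aging SNL replicate 2 left out instead, it called 25.7% of 13727 genes, 13.4% higher and 12.3% lower, and 6 members, Dcn, Lum and Prelp higher and Acan, Hapln1 and Fmod lower. In both of these fits a lone aging SNL library is assumed to vary like the other groups. The median log2 fold change of the members was 0.43 over 6 libraries, with 8 of 10 above 0, against 0.01 for all genes tested. The members' median was 0.62 without aging SNL replicate 1, 0.06 without replicate 2, and 0.04 on the log2(TPM + 1) scale, where that of all genes was -0.22.

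Acan, which encodes the core protein of aggrecan, stood at 637 and 7531 CPM in aging SNL cells, against 2499 and 3745 CPM in control cells. The aging SNL libraries were the lowest and the highest of the 4, so the groups overlapped completely. The mean was 4084 ± 4875 CPM in aging SNL and 3122 ± 881 CPM in control (SD, n = 2 each), and the edgeR log2 fold change was 0.39 ± 1.05 (SE; adjusted p = 0.898). It was 1.27 ± 0.39 without aging SNL replicate 1 (adjusted p = 0.134) and fell by 2.30 ± 0.45 without replicate 2 (adjusted p = 0.0129). On the log2(TPM + 1) scale limma, which averages the logged values of the libraries, gave -0.72 (adjusted p = 0.732). The median of all genes tested was -0.22 on that scale. The gap between the aging SNL libraries, -3.56 on the log2 scale as replicate 1 minus replicate 2, was wider than that of 99.6% of the genes tested.

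Hapln1, which encodes link protein, followed the same order, at 404 and 1638 CPM in aging SNL, against 659.7 and 792 CPM in control. Without aging SNL replicate 1 it was 1.18 ± 0.23 higher on the log2 scale (edgeR adjusted p = 0.04998), at the edge of the threshold. Over 6 libraries it stood at 0.49 ± 0.64 (adjusted p = 0.781), and at -0.07 on the log2(TPM + 1) scale; without replicate 2 it fell by 0.85 ± 0.25 (adjusted p = 0.049). Vcan, which encodes versican, was at 251 and 518 CPM in aging SNL, against 278 and 332 CPM in control. It was 0.76 ± 0.13 higher without aging SNL replicate 1 (edgeR adjusted p = 0.0339) and at -0.28 ± 0.13 without replicate 2 (adjusted p = 0.158). The 3 genes did not move by equal amounts. The ratio of Acan to Vcan in TPM was 2.75 and 18.3 in aging SNL, against 11.6 and 14.5 in control. That of Acan to Hapln1 was 1.03 and 3.01 in aging SNL, against 2.48 and 3.09 in control.

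Of the small proteoglycans, Dcn had the largest log2 fold change over 6 libraries. It stood at 6246 and 2829 CPM in aging SNL, against 1927 and 1508 CPM in control. Both aging SNL libraries were above both controls, on the TPM scale too, at 6224 and 3517 TPM in aging SNL against 2511 and 2008 TPM in control. The edgeR log2 fold change was 1.40 ± 0.40 over 6 libraries, a fold of 2.64, with an unadjusted p of 0.0151 and an adjusted p of 0.299. It was 0.72 ± 0.17 without aging SNL replicate 1 (adjusted p = 0.075) and 1.86 ± 0.17 without replicate 2 (adjusted p = 0.000868). Bgn, the closest relative of decorin, did not share this: it was at 1773 and 1289 CPM in aging SNL, against 1900.1 and 1518 CPM in control, with overlapping groups and a log2 fold change of -0.16 ± 0.23 (adjusted p = 0.809). For Bgn it was -0.41 ± 0.19 without aging SNL replicate 1 (adjusted p = 0.296) and 0.05 ± 0.19 without replicate 2 (adjusted p = 0.868).

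Lum, which encodes the keratan sulfate proteoglycan lumican, stood at 2336 and 1142 CPM in aging SNL, against 899 and 784 CPM in control. Like Dcn it was higher in both aging SNL libraries and highest in replicate 1. The log2 fold change was 1.05 ± 0.35 (edgeR adjusted p = 0.351). Leaving out aging SNL replicate 1 gave 0.44 ± 0.15 (adjusted p = 0.173), and leaving out replicate 2 gave 1.47 ± 0.15 (adjusted p = 0.0013). Fmod, which encodes fibromodulin and competes with lumican for sites on collagen, went the other way in 1 library: it was at 647 and 1619 CPM in aging SNL, against 1559.5 and 1549.6 CPM in control. The other 5 libraries of the study lay between 1549.6 and 1619 CPM, so that the log2 fold change of -1.27 ± 0.12 without replicate 2 (edgeR adjusted p = 0.0011) rested on 1 library, and without replicate 1 it was 0.06 ± 0.12 (adjusted p = 0.818). The ratio of Lum to Fmod in TPM was 5.68 and 1.11 in aging SNL, against 0.907 and 0.796 in control.

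Prelp, whose protein binds both heparan sulfate and collagen, stood at 894 and 469.8 CPM in aging SNL, on either side of 634 and 598 CPM in control. Its log2 fold change was 0.15 ± 0.30 over 6 libraries (edgeR adjusted p = 0.868), -0.39 ± 0.11 without aging SNL replicate 1 (adjusted p = 0.124) and 0.53 ± 0.11 without replicate 2 (adjusted p = 0.0161). Epyc, which encodes epiphycan, was at 218 and 362 CPM in aging SNL, against 204 and 210.4 CPM in control. Both aging SNL libraries were above both controls, replicate 1 by little, and on the TPM scale the groups overlapped, at 239 and 497 TPM in aging SNL against 293 and 309.5 TPM in control. The log2 fold change of Epyc was 0.48 ± 0.25 over 6 libraries (edgeR adjusted p = 0.473). It was 0.81 ± 0.12 without aging SNL replicate 1 (adjusted p = 0.0238) and 0.07 ± 0.12 without replicate 2 (adjusted p = 0.717), so that the call rested on replicate 2. Chad, which encodes the cell-binding protein chondroadherin, was at 5.71 and 6.02 CPM in aging SNL, against 3.77 and 4.65 CPM in control, a log2 fold change of 0.48 ± 0.20 (adjusted p = 0.408) that was 0.52 ± 0.23 without aging SNL replicate 1 and 0.44 ± 0.24 without replicate 2; its 2 aging SNL libraries were close to each other, and on the TPM scale, at 6.5 and 8.55 TPM in aging SNL against 5.61 and 7.08 TPM in control, the groups overlapped.

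Thus 4 of 10 members, Dcn, Lum, Epyc and Chad, had both aging SNL libraries above both controls in CPM, as did 20.9% of all genes tested, and 0 had both below, as did 21.1%. On the TPM scale 2 members, Dcn and Lum, were above, as were 6.55% of genes, and 2, Bgn and Fmod, were below, as were 43%: Bgn was at 1329 and 1205 TPM in aging SNL, against 1863 and 1521 TPM in control, and Fmod at 367 and 1146 TPM in aging SNL, against 1158 and 1175 TPM in control. Across all genes the log2(TPM + 1) scale placed aging SNL 0.22 below control at the median. Relative to that shift Dcn stood at 1.27 and Lum at 0.93.

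**Figure D2:**
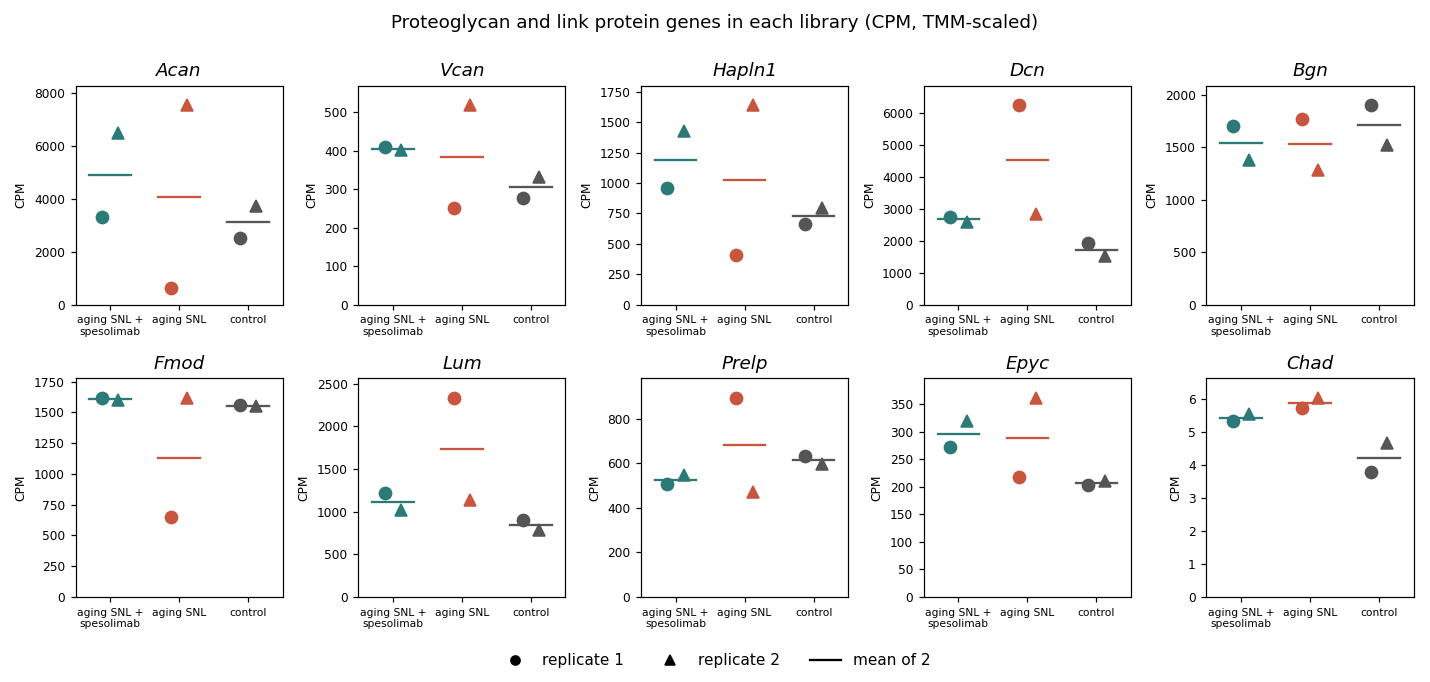
Expression of the 10 genes in CPM (y axis, from 0) in each library, with groups along the x axis, circles for replicate 1, triangles for replicate 2 and a line at the mean of 2. Dcn and Lum lie above both controls in both aging SNL libraries, and Acan lies at 637 and 7531 CPM on either side of the controls.

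Spesolimab-treated aging SNL cells were compared with aging SNL cells to ask what the antibody changed. For 7 of the 10 members both spesolimab libraries lay between the 2 aging SNL libraries, and the fold change depended on which aging SNL library was used. edgeR called 0 of 13399 genes (0%) and 0 of the 10 members over 6 libraries; 392 genes had an unadjusted p under 0.05, and DESeq2 also called 0. Without aging SNL replicate 1 it again called 0 genes (0%), with 848 at an unadjusted p under 0.05. Without aging SNL replicate 2 it called 20.5% of genes, 9.59% higher and 10.9% lower, and 8 of 10 members: Acan, Hapln1, Vcan, Fmod and Epyc higher and Dcn, Lum and Prelp lower. This comparison shares its aging SNL libraries with the one above, so the values are given side by side and not counted as further support.

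Acan stood at 3308 and 6491 CPM with spesolimab, inside the range of 637 to 7531 CPM in aging SNL. The log2 fold change was 0.26 ± 1.05 over 6 libraries (edgeR adjusted p = 0.982), 2.95 ± 0.47 against aging SNL replicate 1 alone (adjusted p = 0.0075) and -0.62 ± 0.39 against replicate 2 alone (adjusted p = 0.785). Hapln1 was at 955 and 1429 CPM with spesolimab, against 404 and 1638 CPM in aging SNL, and Vcan at 409.9 and 401 CPM with spesolimab, against 251 and 518 CPM in aging SNL. These 3 genes had the same arrangement, with both spesolimab libraries between the aging SNL libraries. Over 6 libraries the log2 fold change was 0.22 ± 0.64 for Hapln1 and 0.08 ± 0.34 for Vcan. Against aging SNL replicate 2 alone it was -0.46 ± 0.24 for Hapln1 and -0.35 ± 0.13 for Vcan (edgeR adjusted p = 0.783 for both), and against replicate 1 alone 1.57 ± 0.26 for Hapln1 and 0.69 ± 0.13 for Vcan.

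Dcn stood at 2747 and 2598 CPM with spesolimab, against 6246 and 2829 CPM in aging SNL. Both spesolimab libraries were lower than both aging SNL libraries, by little against replicate 2; the log2 fold change was -0.76 ± 0.39 over 6 libraries (edgeR adjusted p = 0.956). Against aging SNL replicate 2 alone it was -0.08 ± 0.17, and against replicate 1 alone it was -1.22. Lum was at 1214 and 1018 CPM with spesolimab, against 2336 and 1142 CPM in aging SNL, with overlapping groups. Fmod stood at 1614 and 1603 CPM with spesolimab, against 647 and 1619 CPM in aging SNL. Prelp stood at 507 and 547 CPM with spesolimab, against 894 and 469.8 CPM in aging SNL. Bgn was at 1699.9 and 1382 CPM with spesolimab, against 1773 and 1289 CPM in aging SNL, with a log2 fold change of 0.01 ± 0.23 (adjusted p = 0.998). Epyc was at 273 and 319.5 CPM with spesolimab, against 218 and 362 CPM in aging SNL. Chad was at 5.31 and 5.53 CPM with spesolimab, against 5.71 and 6.02 CPM in aging SNL, close to each other in all 4 libraries; its log2 fold change was -0.11 ± 0.20 and turned to 0.03 on the log2(TPM + 1) scale. Over 6 libraries the log2 fold change was -0.64 ± 0.35 for Lum, 0.51 ± 0.42 for Fmod, -0.37 ± 0.30 for Prelp and 0.03 ± 0.25 for Epyc. Against aging SNL replicate 2 alone it was -0.03 ± 0.15 for Lum, -0.01 ± 0.12 for Fmod, 0.17 ± 0.11 for Prelp, 0.26 ± 0.19 for Bgn, -0.29 ± 0.12 for Epyc and -0.15 ± 0.23 for Chad. Against replicate 1 alone it was -1.06 ± 0.15 for Lum, 1.32 ± 0.12 for Fmod, -0.76 ± 0.11 for Prelp, -0.20 ± 0.19 for Bgn, 0.45 ± 0.12 for Epyc and -0.07 ± 0.23 for Chad.

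In all, 2 members, Dcn and Chad, had both spesolimab libraries below both aging SNL libraries in CPM, as did 13.4% of genes, and 0 members had both above, as did 13.5%. On the TPM scale this held for Dcn alone, as for 5.04% of genes.

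**Figure D3:**
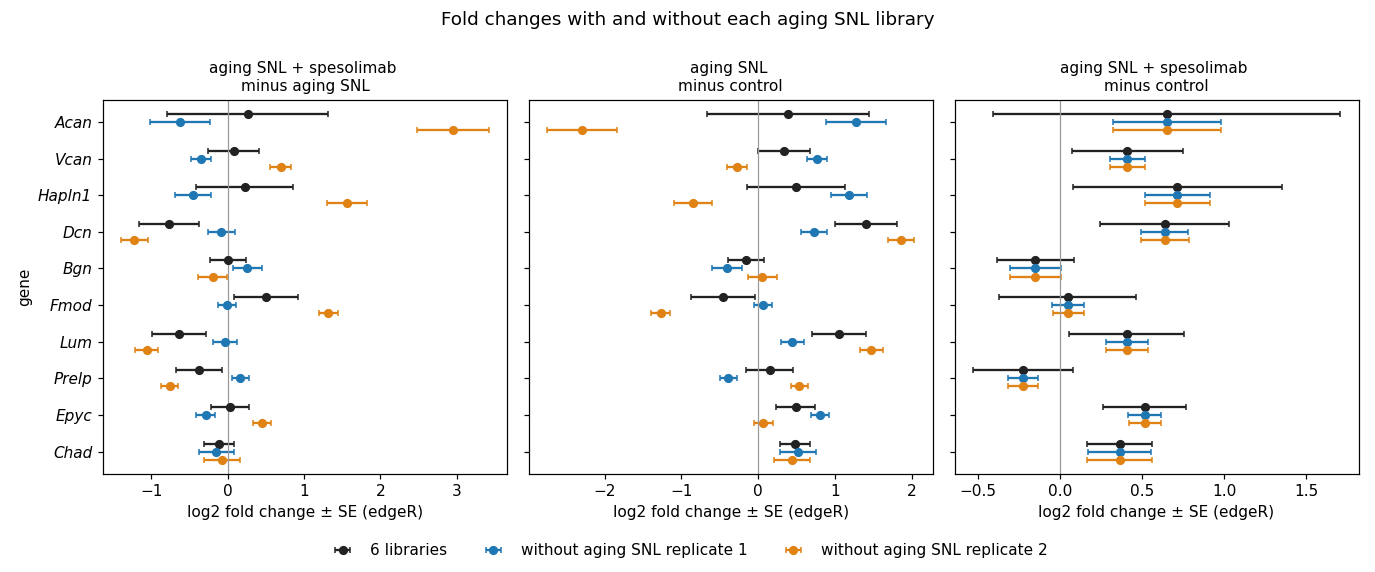
edgeR log2 fold changes with their SE (x axis) of the 10 genes (y axis) in 3 comparisons, over 6 libraries and without each aging SNL library in turn. In the 2 panels that use aging SNL cells, Acan, Hapln1, Vcan, Bgn, Fmod and Prelp change sign with the library left out. In the panel of spesolimab against control their points stay in place with narrower errors.

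Spesolimab-treated aging SNL cells were also compared with control cells, a comparison in which neither group holds the library that stood apart. Here 7 of the 10 members, Vcan, Hapln1, Dcn, Fmod, Lum, Epyc and Chad, had both treated libraries above both controls in CPM, as did 23.8% of genes, and 1, Prelp, had both below, as did 24.6%. On the TPM scale 6 were above, as were 12.7% of genes, Fmod joining Prelp below, as were 40.7%. The differences were small: the median log2 fold change of the members was 0.41, against 0.00 for all genes.

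In the fit of 6 libraries edgeR called 0 genes (0%) and 0 members, with 827 genes at an unadjusted p under 0.05; DESeq2 called 154 genes (1.11%, 0.477% higher and 0.636% lower) and 0 members. In the fit of the 4 libraries compared, edgeR called 2.88% of 13283 genes, 1.51% higher and 1.37% lower, and 1 member, Epyc. Epyc stood at 273 and 319.5 CPM with spesolimab, against 204 and 210.4 CPM in control, a log2 fold change of 0.52 ± 0.10 (adjusted p = 0.0491); with aging SNL replicate 2 kept in the fit the adjusted p was 0.0507. Among the others, Dcn was at 2747 and 2598 CPM with spesolimab, against 1927 and 1508 CPM in control, 0.64 ± 0.14 higher in the 4 libraries (edgeR adjusted p = 0.0758). Hapln1 was at 955 and 1429 CPM with spesolimab, against 659.7 and 792 CPM in control, with 0.72 ± 0.20 (adjusted p = 0.131). Neither passed the threshold, although the groups of both genes were apart.

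Vcan, at 409.9 and 401 CPM with spesolimab against 278 and 332 CPM in control, had a log2 fold change of 0.41 ± 0.11 (edgeR on 4 libraries, adjusted p = 0.11), and Lum, at 1214 and 1018 CPM with spesolimab, against 899 and 784 CPM in control, one of 0.41 ± 0.13 (adjusted p = 0.168). Acan, at 3308 and 6491 CPM with spesolimab, against 2499 and 3745 CPM in control, overlapped between groups, with 0.65 ± 0.33 (adjusted p = 0.391). Fmod, at 1614 and 1603 CPM with spesolimab, against 1559.5 and 1549.6 CPM in control, was nearly level, with 0.05 ± 0.10 (adjusted p = 0.851) and -0.04 on the log2(TPM + 1) scale. Prelp was at 507 and 547 CPM with spesolimab, against 634 and 598 CPM in control, a log2 fold change of -0.23 ± 0.09 (adjusted p = 0.288). Bgn, at 1699.9 and 1382 CPM with spesolimab, against 1900.1 and 1518 CPM in control, overlapped. Chad was at 5.31 and 5.53 CPM with spesolimab, against 3.77 and 4.65 CPM in control, with 0.36 ± 0.20 (adjusted p = 0.43).

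Acan differed between replicate libraries in every group, with replicate 1 minus replicate 2 at -0.97 on the log2 scale with spesolimab, -3.56 in aging SNL and -0.58 in control. Hapln1 had the same order, at -0.58 with spesolimab, -2.02 in aging SNL and -0.26 in control. Dcn, Bgn and Lum were higher in replicate 1 of each group, as the summed macrophage and tendon markers were; their part in these gaps was not tested. Fmod was the steadiest outside aging SNL, with gaps of 0.01 in the spesolimab group and 0.0092 in control.

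Among the members, Vcan and Epyc had the most alike profiles over the 6 libraries, with a Euclidean distance of 0.37 between their centred log2 CPM values, and Dcn and Lum came next at 0.40. Of 10573 other genes with a mean of at least 5 CPM, those nearest to Acan were Snorc, a small cartilage proteoglycan of the cell membrane, at a distance of 0.34, Snx22, a sorting nexin, at 0.36, Fgfr3, a growth factor receptor of chondrocytes, at 0.46, Cpm, a carboxypeptidase, at 0.58, and Col27a1, a cartilage collagen, at 0.59. Snorc stood at 71.3 and 118 CPM with spesolimab, 11.3 and 122 CPM in aging SNL, with controls at 41.4 and 62.2 CPM. Nearest to Dcn were Sdk1, a cell adhesion protein, at 0.29, Gcnt2, a glycan-branching enzyme, at 0.30, Avpr1a, a vasopressin receptor, at 0.32, Pcsk5, a proprotein convertase, at 0.32, and Sat1, an enzyme of polyamine breakdown, at 0.35. All of these distances take in aging SNL replicate 1.

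Other genes of the same biology were read from lists, beside the calls over all genes: 0% over 6 libraries, 1.81% higher and 1.61% lower in aging SNL against control without aging SNL replicate 1, and 1.51% higher and 1.37% lower in spesolimab against control on 4 libraries. DESeq2 over 6 libraries called 1.57% of genes higher and 1.43% lower in aging SNL against control. List calls are those of edgeR unless DESeq2 is named. Genes named below only because they were called, and Aspn and Adamts5, were named after their values were seen. Of 11 further leucine-rich repeat genes of this superfamily, all tested, edgeR called 0 in aging SNL against control over 6 libraries and 1, Podn, lower without aging SNL replicate 1. Podn, which encodes podocan, was at 61.6 and 29.3 CPM in aging SNL, against 76.1 and 61.8 CPM in control. The list's median log2 fold change over 6 libraries was -0.50, and -0.30 without aging SNL replicate 1. Of the 11, 5 were wholly below control and 1 wholly above in CPM, against 21.1% and 20.9% of all genes. Ogn, which encodes osteoglycin, was at 325 and 826 CPM in aging SNL, against 1376 and 1091 CPM in control, a log2 fold change of -1.10 ± 0.44 (edgeR adjusted p = 0.401) that was -0.58 ± 0.19 without aging SNL replicate 1 (adjusted p = 0.152). Kera, which lies between Lum and Epyc, was barely expressed, at 2.05 and 3.8 CPM in aging SNL, against 1.37 and 0.673 CPM in control, with 1.51 ± 0.48 (adjusted p = 0.334); dropping aging SNL replicate 1 gave 1.89 ± 0.42 (adjusted p = 0.0672). Aspn, which encodes asporin and lies in the same run of neighbours on chromosome 13 as Ogn, was at 20.5 and 109.6 CPM in aging SNL, against 99.2 and 85.4 CPM in control. Decorin and lumican thus stood above control in both aging SNL libraries while osteoglycin stood below it in both.

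**Figure D4:**
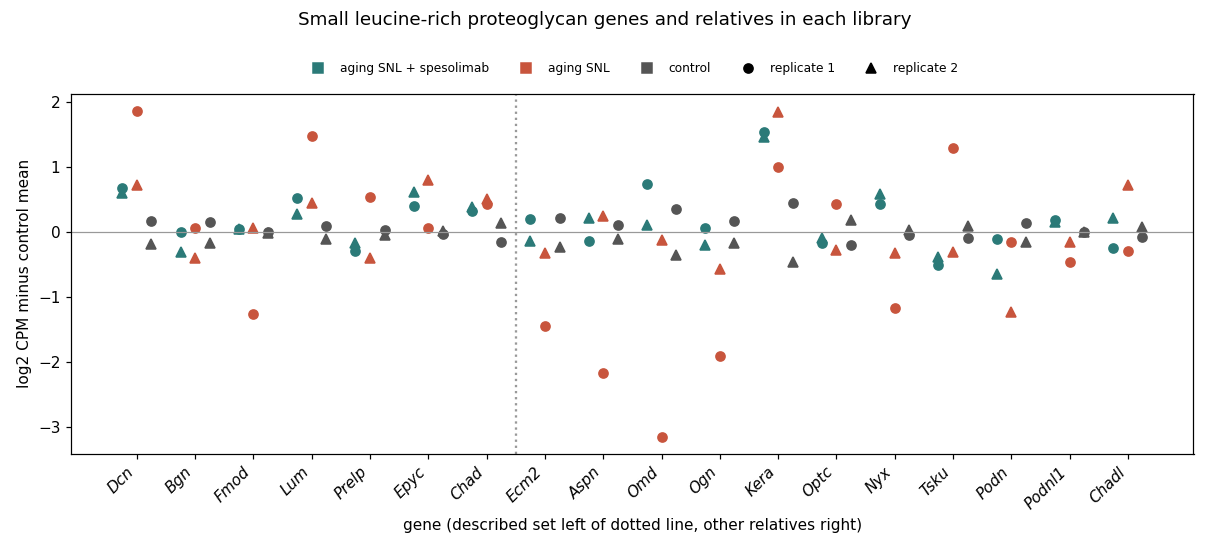
Log2 CPM of each library minus the control mean (y axis) for the 7 small leucine-rich proteins of the set, left of the dotted line, and 11 relatives, right of it, with colours for groups and shapes for replicates. In aging SNL replicate 1, of the 18 genes, Dcn and Lum lie highest while Omd, Aspn and Ogn lie lowest.

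Of 5 other aggregating proteoglycan and link protein genes 3 were tested and 0 called in the 6 libraries or without aging SNL replicate 1. Hapln4 was at 5.96 and 6.2 CPM in aging SNL, against 3.49 and 3.2 CPM in control (edgeR adjusted p = 0.281), and Hapln3, the neighbour of Acan, at 0.994 and 0.602 CPM in aging SNL, against 0.629 and 0.673 CPM in control. Of 25 further proteoglycan genes 22 were tested. edgeR called 0 over 6 libraries and 2 without aging SNL replicate 1, Gpc2 and Cd44, both lower. Gpc2, a glypican of the cell surface, was at 2.92 and 2.65 CPM in aging SNL, against 6.63 and 7.51 CPM in control, a log2 fold change of -1.34 ± 0.21 over 6 libraries (adjusted p = 0.165), while dropping aging SNL replicate 1 gave -1.41 ± 0.26 (adjusted p = 0.0422). Cd44, the hyaluronan receptor, stood at 205 and 68.1 CPM in aging SNL, on either side of control at 100.07 and 116 CPM, so that its direction turned with the library. Gpc4, another glypican, was at 96.8 and 94.4 CPM in aging SNL, against 118 and 123 CPM in control (adjusted p = 0.272). DESeq2 over 6 libraries called 2 of the 22 in aging SNL against control, Gpc2 and the collagen gene Col12a1, both lower. With spesolimab against control, edgeR on 4 libraries called 2 of the 22, the lubricin gene Prg4 higher and Gpc4 lower. Prg4 was at 261 and 228 CPM with spesolimab, against 162 and 144 CPM in control, and Gpc4 at 85.8 and 91.9 CPM with spesolimab, against 118 and 123 CPM in control.

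The 6 enzymes that start the sugar chains on a core protein had 0 calls over 6 libraries in each comparison and a median log2 fold change of 0.05 in aging SNL against control, which was 0.40 without aging SNL replicate 1 and -0.10 without replicate 2. Xylt2 was at 29.4 and 27.9 CPM in aging SNL, against 30.1 and 30.7 CPM in control, and B4galt7 at 31.8 and 42.2 CPM in aging SNL, against 28 and 34.2 CPM in control. Of 10 genes of proteases that cut these core proteins 8 were tested, with 0 calls over 6 libraries and 3 without aging SNL replicate 1, Mmp3 higher and Adamts5 and Adamts9 lower. DESeq2 over 6 libraries called 2 of the 8 higher in aging SNL against control, Adamts1 and Mmp3, and 1 lower, Adamts9. Mmp3, which encodes stromelysin, was at 21771 and 2366 CPM in aging SNL, against 854 and 579 CPM in control. Adamts9, which cuts versican and aggrecan, was at 35.2 and 39.04 CPM in aging SNL, against 118 and 122 CPM in control, a log2 fold change of -1.69 ± 0.18 (edgeR adjusted p = 0.108). Leaving out replicate 1 gave -1.62 ± 0.20 (adjusted p = 0.0162). Adamts1, a related versican-cutting protease, was at 262 and 197 CPM in aging SNL, against 148 and 138 CPM in control (adjusted p = 0.258). Adamts5, the main aggrecanase of mouse cartilage, was at 945 and 222 CPM in aging SNL, against 393 and 333 CPM in control. Like Mmp3 it was highest in aging SNL replicate 1. With spesolimab against control, edgeR on 4 libraries called Mmp3 higher and Adamts9 lower.

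Of 17 partner and regulator genes 16 were tested, with 0 calls over 6 libraries and 1, the matrilin gene Matn3, higher without aging SNL replicate 1. Matn3 was at 2.42 and 132 CPM in aging SNL, against 37.4 and 46.5 CPM in control. Col1a1, the fibrillar collagen of fibrous tissue, was at 3410 and 4347 CPM in aging SNL, against 7054 and 5887 CPM in control (edgeR adjusted p = 0.334). Tgfb3, a growth factor that drives cartilage matrix synthesis, was at 60.3 and 83.6 CPM in aging SNL, against 126 and 104 CPM in control (adjusted p = 0.305). Sox9, the transcription factor that drives Acan and Hapln1, lay on either side of control as those genes did, at 71.5 and 207 CPM in aging SNL against 149 and 156 CPM in control. DESeq2 over 6 libraries called 1 of the 16, Col1a1, lower in aging SNL against control.

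Without aging SNL replicate 2, where 25.7% of all genes were called in aging SNL against control, the lists had more calls. They were 1 higher and 4 lower of 11 leucine-rich repeat genes, 0 of 3 aggregating and link protein genes, and 7 higher and 3 lower of 22 other proteoglycan genes. There were also 2 lower of 6 linker enzymes, 5 higher and 1 lower of 8 proteases, and 2 higher and 11 lower of 16 partners and regulators. The median log2 fold change of the proteases was 0.68 over 6 libraries, 0.15 without replicate 1 and 1.13 without replicate 2. That of the partners and regulators turned with the library, at -0.14 over 6 libraries, 0.10 without replicate 1 and -0.94 without replicate 2. In the edgeR fit of 6 libraries 0 genes of any list were called in either comparison with spesolimab. DESeq2 over 6 libraries called 1 protease gene, Adamts9, lower in spesolimab against control, beside 0.636% of all genes.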

How the data were processed

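Poly(A) RNA of 6 libraries was sequenced on DNA nanoballs, per the labels. The deposited table gives expected counts per gene and TPM computed by the authors; the submitters' processing notes name build GRCm39 and the tools RSEM 1.3.1, Bowtie2 2.3.4.3 and DESeq2 1.4.5, without settings. Strandedness is not given in the sources used here. Of 22173 genes listed, 4984 had empty cells, and 15 further value columns were not used.

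Expected counts, 12.3% of them not whole, were rounded and tested with edgeR 4.0.16 (R 4.3.3): filterByExpr (minimum count 10, total 15), TMM, and a quasi-likelihood fit of 3 groups of 2 with 3 residual degrees of freedom. Calls had a Benjamini-Hochberg adjusted p under 0.05 over all genes tested. SE is the log2 fold change over the root of F. CPM values and SDs use TMM-scaled depths. Alternatives were DESeq2 1.42.0, other scaling, no filter, limma 3.58.1 on log2(TPM + 1) and log2(TPM + 0.1), a replicate block, fits of 2 groups, and each library left out. The code was tested on simulated data.

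The members and lists were chosen with earlier results of these data known. Genes named were all members, Col2a1, Sox9, and the 2 tested genes of each list with the lowest p in aging SNL against control. Also named were the 5 genes nearest to Acan and to Dcn among those with a mean of 5 CPM or more. Genes of list calls numbering 5 or fewer were named as well, except in the fits without aging SNL replicate 2. There the list calls were given as counts alone.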

Additional observations from a re-analysis of the deposited data

How the results depend on the processing

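Of the fold changes of members under settings other than leaving out a library, 197 kept direction and call, 2 became calls (Dcn with DESeq2, Epyc with the 4 libraries compared) and 11 reversed. For aging SNL against control the reversed values were -0.72 on both log2(TPM + 1) and log2(TPM + 0.1) and -0.28 with the replicate block for Acan, -0.071 and -0.073 on the TPM scales for Hapln1, and -0.17 on both for Prelp. For spesolimab against aging SNL they were 0.034 and 0.040 for Chad, and for spesolimab against control -0.0424 and -0.0425 for Fmod, on the same scales. DESeq2 called 415 genes and 1 member in aging SNL against control and 154 genes in spesolimab against control, and the 4 libraries of spesolimab and control alone gave 382 genes and 1 member.

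With 1 library left out at a time, calls spanned 0 to 3525 genes and 0 to 6 members in aging SNL against control, 0 to 2810 and 0 to 8 in spesolimab against aging SNL, and 0 to 385 and 0 to 1 in spesolimab against control. Calls came only when an aging SNL library was left out. Fold changes that reversed in aging SNL against control spanned -2.30 to 1.27 for Acan, -0.85 to 1.18 for Hapln1, -0.28 to 0.76 for Vcan, -0.41 to 0.050 for Bgn, -1.27 to 0.059 for Fmod and -0.39 to 0.53 for Prelp. In spesolimab against aging SNL they spanned -0.62 to 2.95 for Acan, -0.46 to 1.57 for Hapln1, -0.35 to 0.69 for Vcan, -0.20 to 0.26 for Bgn, -0.0091 to 1.32 for Fmod, -0.29 to 0.45 for Epyc and -0.76 to 0.17 for Prelp. Bgn spanned -0.31 to 0.023 in spesolimab against control. The cause was not tested.

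The replicate block called 0 genes in each comparison. Gaps between same-numbered libraries correlated across genes at 0.29 for spesolimab with aging SNL, 0.42 for spesolimab with control and 0.25 for aging SNL with control; nothing says what the numbers mark. With 2 libraries a group and 3 residual degrees of freedom, the spread rests on few values.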
